A study of Danio rerio with 6 samples.

Results

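The actinodins and a small group of fin bud genes were examined in zebrafish trunk tissue around a cut spinal cord. The genes were chosen by their fold changes in the comparison described here: earlier results of IWR-1 against vehicle in the same libraries had shown them to be low with IWR-1. The list names 7 genes, and 6 of them were found by name among the 22350 genes of the deposited count table: and1, and2, and3, bhlha9, tspearb and sp9. The name msxc has no entry in the deposited annotation. A RefSeq gene table for assembly GRCz12tu gives msxc as an older name of msx3, and msx3 is described below with its relatives and not as a member. Because values of this comparison chose the genes, their own differences are given as a description, with no test.

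Actinodins are structural proteins of actinotrichia, the stiff fibrils that hold up the fin fold of fish larvae and line the tip of each adult fin ray. In zebrafish embryos they are made first by the epidermis of the fin fold and later also by fin mesenchyme, and loss of and1 and and2 function leaves the fin fold without actinotrichia. Fin buds and limb buds grow under an ectodermal ridge, a strip of epidermis whose signals include Fgf and Wnt ligands and whose transcription factors include Sp and Dlx proteins.

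Wild-type AB larvae had the cord cut through at 5 days post fertilization, at the level of the anal pore, and recovered for 6 h. They were then kept in 0.25% DMSO, either alone (the DMSO group) or with 35 µM IWR-1, a Wnt antagonist that stabilises Axin (the IWR-1 group), until collection on day 8 after fertilization, which is day 3 after the injury. Each sample pooled 20 animals, cut to about 1 mm of trunk and trimmed ventrally along the notochord, and each group had 3 samples labelled as biological replicates. All larvae were injured and all were in DMSO; uninjured larvae were not analysed here, and the labels do not say how much median fin fold was in the piece.

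Libraries held between 11014963 and 15219664 counts. The groups lay apart on the first principal component (55.8% of the variance), and DMSO replicate 2 lay farthest from its group on the second (21.6%). Mitochondrial genes took between 6.32% and 12.7% of counts. Of 19562 genes tested with edgeR, 703 were lower and 759 higher with IWR-1 at a Benjamini-Hochberg adjusted p below 0.05. Levels below are CPM, counts scaled to library size with TMM factors; they are not divided by transcript length, so they compare samples and not genes. Fold changes are log2 values of IWR-1 against DMSO from the edgeR fit.

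All 6 genes were lower with IWR-1 in every library than in any DMSO library, by between 4.06-fold (sp9) and 12-fold (and3) in the group means. Each was also among the genes called lower by edgeR. Among all tested genes 3.59% were called lower, 3.88% were called higher and 15.6% had non-overlapping groups with IWR-1 the lower; since the list was drawn from this comparison, nothing is read from that contrast. In pooled tissue, fewer cells of a type and less RNA per cell cannot be told apart.

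Actinodin 1, and1 (ENSDARG00000088514), is the founding member of the family and lies on chromosome 24 from 26277390 to 26283359 on the minus strand (GRCz11). Its level was 156, 195 and 198 CPM in DMSO replicates 1, 2 and 3. With IWR-1 it was 25.8, 18.4 and 34.5 CPM in replicates 1, 2 and 3. The lowest DMSO library was 4.50-fold above the highest IWR-1 library. The means were 183 ± 23.7 and 26.3 ± 8.09 CPM (SD, n = 3 each), a log2 fold change of -2.80 ± 0.22 (SE).

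Actinodin 2, and2 (ENSDARG00000079302; chromosome 2, 31762852 to 31767827, minus strand), also encodes an actinotrichia protein. DMSO replicates 1, 2 and 3 gave 229, 199 and 181 CPM, and IWR-1 replicates 1, 2 and 3 gave 34.5, 20.3 and 36.8 CPM. The order of the DMSO libraries was the reverse of that for and1, with replicate 1 the highest, while IWR-1 replicate 2 was again the lowest of its group. The log2 fold change was -2.73 ± 0.22 (SE), close to that of and1.

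Actinodin 3, and3 (ENSDARG00000056873; chromosome 10, 22848556 to 22854758, minus strand), showed the largest difference of the 6. It stood at 22.05, 26.6 and 30.6 CPM in DMSO replicates 1, 2 and 3, and at 2.37, 1.18 and 3.04 CPM in IWR-1 replicates 1, 2 and 3. These rest on 1021 counts in the DMSO libraries together and 91 in the IWR-1 libraries together. The summed counts, scaled by library size, were 12-fold lower with IWR-1, with a 95% counting interval of 9.64 to 15.0. The log2 fold change was -3.57 ± 0.28 (SE).

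**Figure D1:**
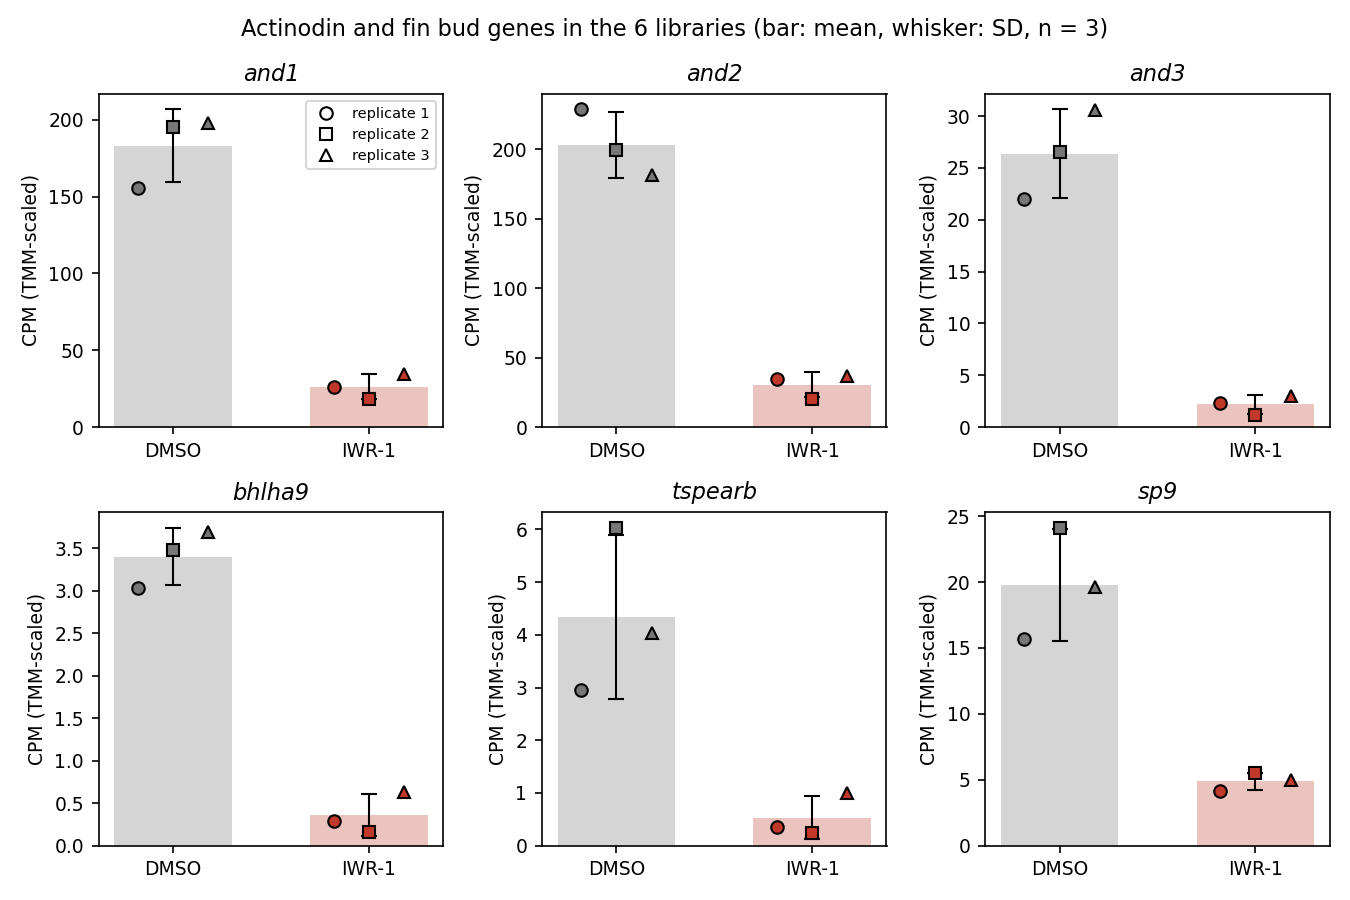
TMM-scaled CPM of each of the 6 genes by group, with 1 point per library (shape gives the replicate number), bars at the group mean and whiskers at 1 SD, n = 3. In every panel the 3 IWR-1 points lie below the 3 DMSO points, and for and1 the nearest points of the groups are 4.50-fold apart.

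The share of and3 among the actinodin counts was lower in the IWR-1 libraries. Taking the 3 genes' counts within each library, which needs no scaling between libraries, and3 made up 5.43%, 6.31% and 7.46% of actinodin counts in DMSO replicates 1, 2 and 3. With IWR-1 its share was 3.78%, 2.95% and 4.09%, below every DMSO library. These IWR-1 shares rest on 33, 15 and 43 and3 counts. They are given without intervals, and the difference was not tested. The split between and1 and and2 instead ran in the same order of replicate numbers in both groups. The share of and2 in the sum of and1 and and2 was 59.5% in DMSO replicate 1 (95% exact binomial interval 58.1 to 60.9), 50.5% in replicate 2 (49.0 to 52.0) and 47.8% in replicate 3 (46.5 to 49.1). In IWR-1 replicates 1, 2 and 3 it was 57.2% (53.8 to 60.6), 52.5% (48.0 to 57.0) and 51.6% (48.5 to 54.7). The libraries of replicate 1 held the largest share of and2 in both groups. The intervals of the IWR-1 replicates overlapped one another, so their order is uncertain. The groups overlapped in this share, and the intervals cover counting error only.

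**Figure D2:**
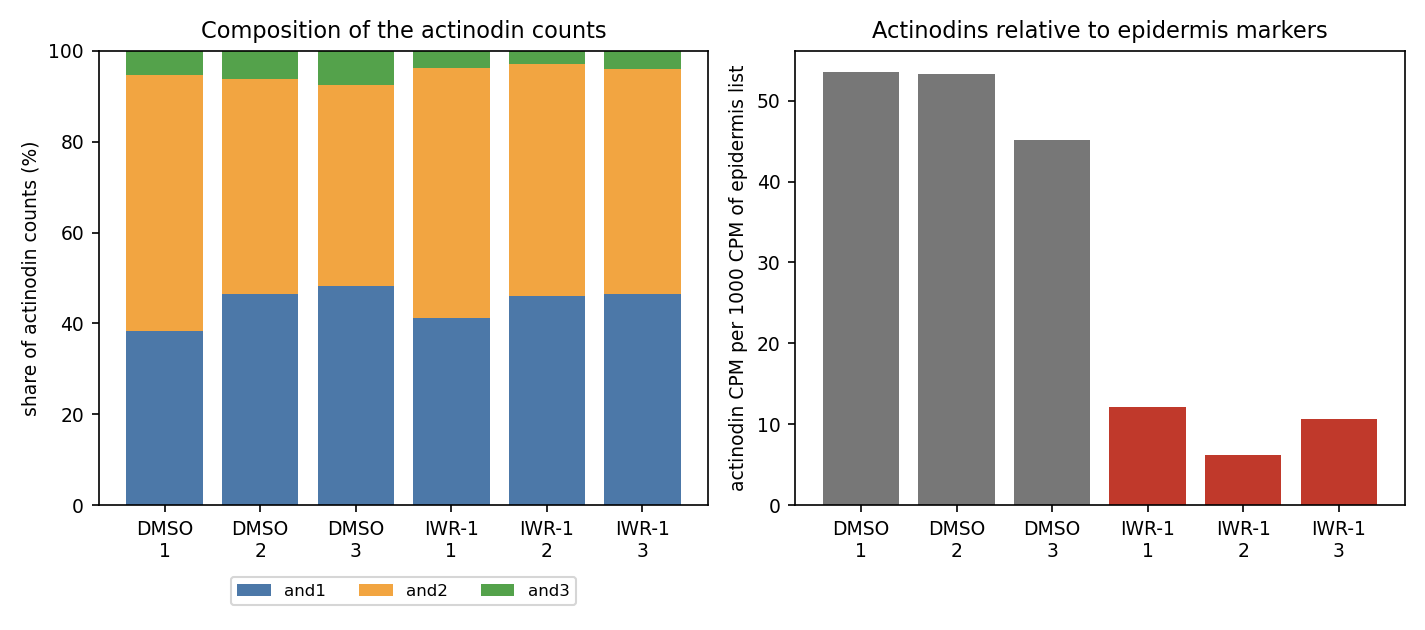
Left, share of actinodin counts from and1, and2 and and3 in each library, in percent; right, summed actinodin CPM per 1000 CPM of the epidermis marker list in each library. The and3 share was at most 4.09% in the IWR-1 libraries and at least 5.43% in the DMSO libraries, and the ratio on the right was at most 12.1 with IWR-1 and at least 45.2 with DMSO.

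sp9 (ENSDARG00000099374; chromosome 9, 2591968 to 2594464, minus strand) encodes a zinc finger transcription factor of the ectodermal ridge, where in chick and zebrafish it acts on Fgf expression and outgrowth. It gave 15.7, 24.1 and 19.6 CPM in DMSO replicates 1, 2 and 3 and 4.16, 5.50 and 4.96 CPM in IWR-1 replicates 1, 2 and 3. The log2 fold change of -2.02 ± 0.21 (SE) was the smallest of the 6. The IWR-1 libraries were tight, with a coefficient of variation of 13.8% where counting alone gives 12.3%.

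bhlha9 (ENSDARG00000103981; chromosome 10, 37927100 to 37928125, plus strand) encodes a basic helix-loop-helix factor, known from human limb malformations and from the limb bud ridge of the mouse. The gene held 38, 37 and 56 counts in DMSO replicates 1, 2 and 3, against 4, 2 and 9 counts in IWR-1 replicates 1, 2 and 3. On the CPM scale these were 3.04, 3.48 and 3.70 with DMSO and 0.287, 0.157 and 0.637 with IWR-1. No IWR-1 library reached the 0.754 CPM that the low-count filter asks for, so the gene was tested only through its DMSO level, and it had to differ. The filter asks for this level in as many libraries as a group holds. Its log2 fold change was -3.19 ± 0.40 (SE), and the summed counts were 9.31-fold lower with a 95% counting interval of 5.44 to 17.1.

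tspearb (ENSDARG00000089235; chromosome 9, 12596038 to 12625385, minus strand) encodes a protein with laminin G and EAR repeats whose human counterpart is linked to disorders of teeth and hair. Counts were 37, 64 and 61 in DMSO replicates 1, 2 and 3 and 5, 3 and 14 in IWR-1 replicates 1, 2 and 3. In CPM this was 2.96, 6.03 and 4.03 against 0.359, 0.236 and 0.991. Among IWR-1 libraries only replicate 3 reached 0.754 CPM, so tspearb too passed the filter through its DMSO level. The DMSO libraries spread 2.04-fold and the IWR-1 libraries 4.21-fold, the widest of the 6 genes, yet the groups did not overlap. The log2 fold change was -2.98 ± 0.46 (SE), and -3.80 without IWR-1 replicate 3, in which the gene was highest of its group. For bhlha9 the value without that library was -3.87.

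The genes shared much of their order within the groups. IWR-1 replicate 2 was the lowest and IWR-1 replicate 3 the highest of the group for 5 of the 6 genes; for sp9 replicate 1 was lowest and replicate 2 highest. In the DMSO group replicate 1 was the lowest for 5 of the 6, and and2 was the exception. The spread among IWR-1 libraries was wider than counting error for the actinodins: the coefficient of variation of and1 was 30.8% where counting alone gives 5.27%, and that of and3 was 43.0% against 18.2%. Taken within replicate numbers, the log2 ratio of IWR-1 to DMSO for and1 was -2.59, -3.41 and -2.52 for replicates 1, 2 and 3. For and2 it was -2.73, -3.29 and -2.30, and for and3 -3.22, -4.49 and -3.33. The widest ratio fell in the pair of replicate 2 for all 6 genes. DMSO replicate 2 lay farthest from its group on the second principal component. Without it the log2 fold change was -2.74 for and1, -2.74 for and2 and -3.56 for and3. It was -1.85 for sp9, -3.17 for bhlha9 and -2.68 for tspearb. With IWR-1 replicate 2 left out instead, it was -2.60 for and1, -2.51 for and2 and -3.28 for and3. For sp9 it was then -2.11, for bhlha9 -2.85 and for tspearb -2.65.

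**Figure D3:**
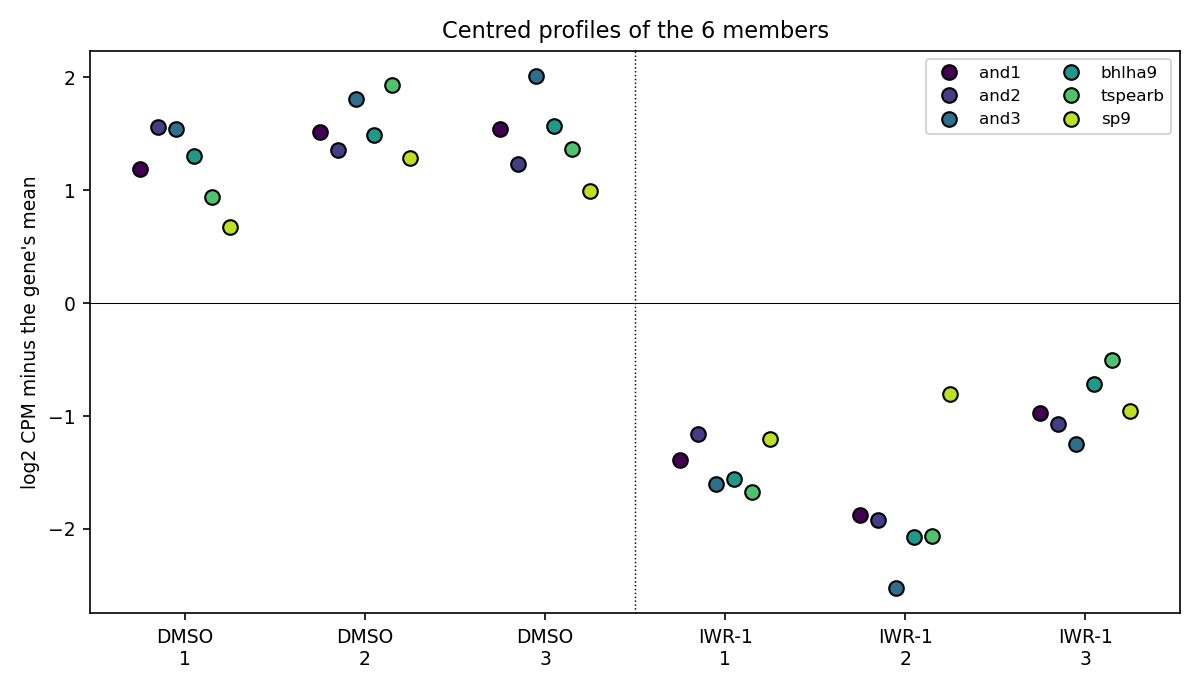
log2 CPM (with a small count added) of each gene minus its mean over the 6 libraries, with 1 point per gene and library. All points lie above 0 in the DMSO libraries and below 0 in the IWR-1 libraries; in IWR-1 replicate 2, and3 reached -2.52 while sp9 stood at -0.81.

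Genes with a like pattern were sought by the root mean square difference between their centred log2 CPM over the 6 libraries and the mean profile of and1, and2 and and3, over 15316 named genes with a mean of at least 1 CPM. For the members outside this mean the difference was 0.184 (bhlha9), 0.379 (tspearb) and 0.675 (sp9). Closest among other genes was notum1b, a secreted Wnt deacylase, at 0.237. It was followed by frem2a at 0.276, pah (phenylalanine hydroxylase) at 0.278 and the homeobox gene dlx2b at 0.378. The uncharacterised gene AL954191.1 (0.411) and gch2, an enzyme of pteridine synthesis (0.425), came next. The measure is set mostly by the size of the difference between the groups. These 6 genes had fold changes from -2.57 (AL954191.1) to -3.96 (dlx2b), where the actinodins ranged from -2.73 to -3.57. The log2 CPM of the profiles had a small count added, which narrows differences of low genes such as dlx2b and bhlha9.

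The members lie on chromosomes 2, 9, 10 and 24, and no gene of the count table overlapped them. The 2 nearest tested genes on either side of each were used to ask whether the surrounding region was lower too. Of 24 such neighbours, 1 was called lower by edgeR, where 3.59% of all tested genes were. The count is near that share, so nothing particular to these regions is read from it. The gene called was per1a, a circadian clock gene 16944 bases from and3 (log2 fold change -1.02 ± 0.15, edgeR adjusted p = 0.00281). The others ranged up to 0.65 (lrrcc1, near and2). ap4m1, on the opposite strand and 44 bases from the start of and3, was at 0.06 ± 0.21 (edgeR adjusted p = 0.896). cops9, on the same strand and 1154 bases from and1, was at -0.50 ± 0.27 (edgeR adjusted p = 0.277). sp3a, the nearest tested gene at higher coordinates than sp9 and a broadly expressed Sp factor, was at 0.26 ± 0.14 (edgeR adjusted p = 0.289).

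**Figure D4:**
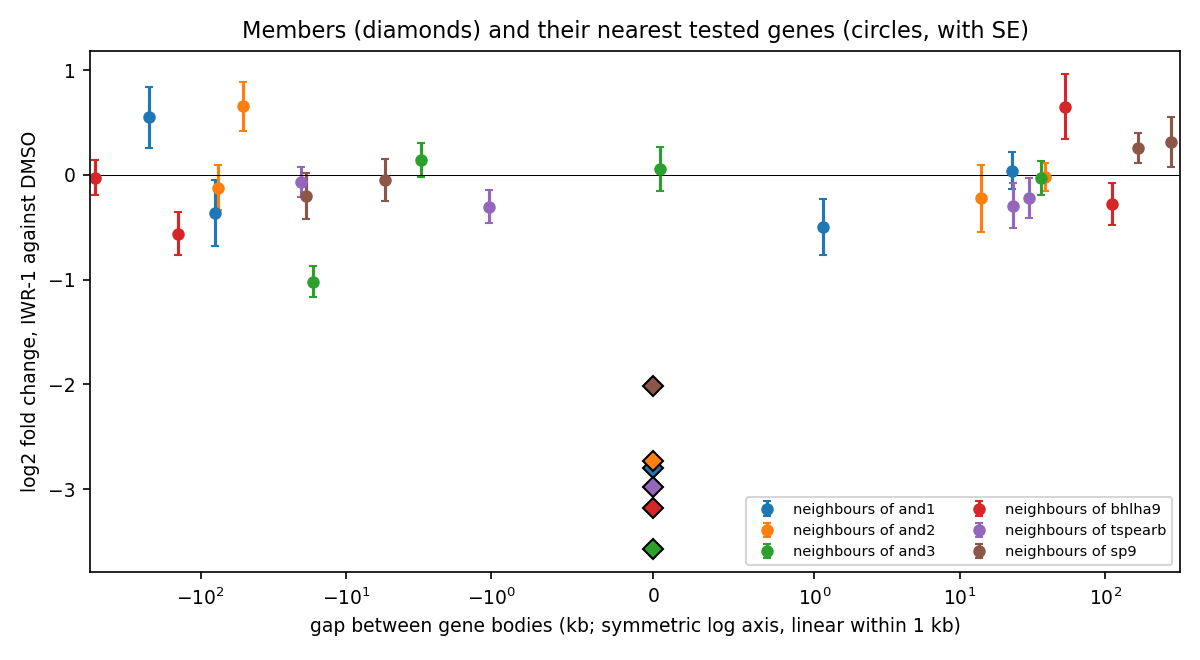
log2 fold change (IWR-1 against DMSO) of the 6 genes (diamonds at 0) and of their 24 nearest tested genes (circles, whiskers 1 SE) against the gap between gene bodies in kb, on a symmetric log axis. The diamonds lie between -2.02 and -3.57 and the circles between -1.02 and 0.65.

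Relatives of the fin bud factors were lower as well, in the tested Msx genes and in part of the Sp genes. Of 15 tested paralogs and relatives of the members, 7 fell by the edgeR test, against 3.59% of all tested genes, and their median was -1.03 on the log2 scale (-0.006 over all tested genes). In this and the next lists, as in the members, genes were listed with earlier results of these data known. Among the 7 is msx3, listed as the member msxc and so chosen by this same comparison. Nothing is read from the count of 7. The Msx homeobox genes act in fin fold, limb ridge and regenerating fin. All 4 that were tested fell, msx3 among them. msx1a was too low to test, at 0.824 ± 0.324 CPM with DMSO and 0.675 ± 0.346 CPM with IWR-1, and its groups overlapped. msx3, known in older work as msxc, was at 13.7, 14.5 and 16.1 CPM in DMSO replicates 1, 2 and 3 and at 7.60, 6.76 and 6.73 CPM in IWR-1 replicates 1, 2 and 3 (log2 fold change -1.07 ± 0.16, edgeR adjusted p = 0.00358). msx2b had a mean of 36.3 ± 12.6 CPM with DMSO and 9.43 ± 3.26 CPM with IWR-1 (SD, n = 3 each; adjusted p = 0.00298 by edgeR). For msx2a the means were 3.72 ± 0.78 and 0.70 ± 0.57 CPM (adjusted p = 0.00947 by edgeR). Among IWR-1 libraries msx2a reached the 0.754 CPM of the filter only in replicate 3 (1.35 CPM). It was therefore tested through its DMSO level, and it is counted in the 4 above. msx1b fell by 1.17 ± 0.24, with an edgeR adjusted p of 0.0141 that became 0.0700 on leaving out IWR-1 replicate 2 and 0.0723 on leaving out IWR-1 replicate 3.

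Among 10 tested Sp genes, 3 fell, against 3.59% of all tested genes. sp8a and sp8b, ridge factors like sp9, fell, with log2 fold changes of -1.03 ± 0.16 (edgeR adjusted p = 0.00415) and -1.199 ± 0.179 (edgeR adjusted p = 0.0031). The third, sp6, chosen after its value was seen, was at -1.70 ± 0.37 (edgeR adjusted p = 0.0211, and 0.0550 and 0.0832 without IWR-1 replicates 1 and 2). In IWR-1 replicate 1 sp6 was at 0.502 CPM, below the filter level, so it passed the filter through its DMSO level. sp3a and sp3b, which are not restricted to fins, were at 0.26 ± 0.14 and 0.33 ± 0.16 and did not pass the edgeR test (adjusted p = 0.289 and 0.228). The paralog tspeara was too low to test, at 0.322 ± 0.407 CPM with DMSO and 0.126 ± 0.119 CPM with IWR-1.

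Ridge and fin bud signalling genes were lower chiefly through the Dlx homeobox genes and several ligands. Of 31 tested, 11 fell by the edgeR test (35.5%, against 3.59% of all tested genes), and the list had a median of -0.50. The call was made for 6 when IWR-1 replicate 2 was left out and for 5 when IWR-1 replicate 3 was. In the same fits only 1.38% and 0.957% of all tested genes were called lower. All 5 tested Dlx genes of the list, which mark the ectodermal ridge, fell. The listed dlx6a had no row in the count table. dlx4b, named after its value was seen, was too low to test. It was at 0.678 ± 0.369 CPM with DMSO and 0.147 ± 0.071 CPM with IWR-1. dlx2b was at 2.80, 3.77 and 1.98 CPM in DMSO replicates 1, 2 and 3 and at 0.143, 0.157 and 0.212 CPM in IWR-1 replicates 1, 2 and 3 (log2 fold change -3.96 ± 0.45, edgeR adjusted p = 0.000634). dlx4a fell by 3.09 ± 0.40 (edgeR adjusted p = 0.00141), and dlx5a fell by 1.75 ± 0.28 (edgeR adjusted p = 0.00399). The other two, dlx2a (-1.66, edgeR adjusted p = 0.0116) and dlx3b (-1.04, 0.0146), named after their values were seen, were not called without IWR-1 replicate 3 (dlx2a, 0.0712) or without IWR-1 replicates 1 and 2 (dlx3b, 0.0536 and 0.0782). dlx2b, dlx4a and fgf24 reached the filter only with DMSO, so they were tested only through their DMSO level and had to be lower. dlx2a missed the filter level in IWR-1 replicate 3 (0.708 CPM) and likewise passed through its DMSO level. All are counted in the 11 above, and dlx2a, dlx2b and dlx4a in the 5 Dlx genes. Among ligands, wnt5b fell by 1.07 ± 0.18 (edgeR adjusted p = 0.00606, and 0.0504 without IWR-1 replicate 3), and bmp2a fell by 1.26 ± 0.22 (edgeR adjusted p = 0.00794). fgf10a, which signals from mesenchyme to the ridge, fell by 1.21 ± 0.22 (edgeR adjusted p = 0.0097, and 0.0540 and 0.0542 without IWR-1 replicates 2 and 3). The Fgf receptor gene fgfr2 (0.12 ± 0.14) did not pass the edgeR test (adjusted p = 0.623).

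Factors that pattern paired and median fins moved less. Of 33 tested, 4 fell (12.1%, against 3.59% of all tested genes), and the median log2 fold change was -0.19. With the replicate number as a block 8 fell, where 8.86% of all tested genes were called lower. The mesenchymal homeobox genes prrx1a and prrx1b fell, at -1.19 ± 0.15 (edgeR adjusted p = 0.00138) and -1.26 ± 0.17 (edgeR adjusted p = 0.00202), and the bHLH gene twist3 fell by 1.77 ± 0.30 (edgeR adjusted p = 0.00647). sall4 fell by 0.72 ± 0.17 (edgeR adjusted p = 0.0279). That call was lost when replicate 1 of the DMSO group was left out (adjusted p = 0.0719), and also when IWR-1 replicate 2 (0.124) or 3 (0.165) was. hapln1a, a hyaluronan link protein gene of fin mesenchyme, was at -0.28 ± 0.14, and meis1b at 0.08 ± 0.14 (edgeR adjusted p = 0.244 and 0.760). Of 7 tested Hox genes from groups 10 to 13, edgeR called 0 and DESeq2 0, while 3 had an unadjusted p below 0.05 and the replicate block called 2. Of all 19562 tested genes edgeR called 1462 and the replicate block 3486, and DESeq2 called 1818 of 19561. Counts this small are therefore not read as a result about the Hox genes. The paired-fin genes tbx5a, tbx5b, tbx4 and pitx1, and hoxd13a and hoxb13a, had no row in the count table, in which each gene reaches at least 6 counts in some library.

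Matrix genes of the fin fold included frem2a, which fell the most of all tested genes in the 4 fin lists other than the homeobox genes dlx2b and dlx4a. Of 42 tested genes for actinotrichia collagens and fin fold matrix, 16 fell by the edgeR test (38.1%, against 3.59% of all tested genes). The list had a median of -0.41. Only 5 were called when DMSO replicate 1 was left out, 5 when IWR-1 replicate 2 was and 4 when IWR-1 replicate 3 was. Calls were fewer among all tested genes too, with 1.7%, 1.38% and 0.957% called lower in these fits. Fras1 and Frem proteins anchor the epidermis of the fin fold to the tissue beneath, and zebrafish mutants in several of them have blistered fins. Of the 6 tested, 5 fell. frem2a was at 113, 168 and 129 CPM in DMSO replicates 1, 2 and 3 and at 19.1, 17.1 and 23.5 CPM in IWR-1 replicates 1, 2 and 3 (log2 fold change -2.78 ± 0.19, edgeR adjusted p = 2.96e-05), a difference of the size seen for and1. frem1a fell by 1.89 ± 0.23 (edgeR adjusted p = 0.000884). fras1 (-0.66), frem2b (-0.65) and frem3 (-0.72) fell too; these were named after their values were seen, and their edgeR adjusted p rose to 0.103, 0.0676 and 0.130 without IWR-1 replicate 3, the calls being lost as well on leaving out IWR-1 replicate 2 (0.0943, 0.0860 and 0.0975) or DMSO replicate 1 (0.0522, 0.0663 and 0.0746). For fras1 and frem2b the same held for IWR-1 replicate 1 (0.0584 and 0.0528). The paralog frem1b, also named after its value was seen, was at -0.16 ± 0.23 (edgeR adjusted p = 0.703).

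Actinotrichia also contain collagens. Of the 13 tested collagen genes of the list 4 fell, against 3.59% of all tested genes. col1a1a fell by 0.95 ± 0.18 (edgeR adjusted p = 0.0105, and 0.0752 without IWR-1 replicate 3). The collagen IX gene col9a1a had means of 4.28 ± 0.70 CPM with DMSO and 1.02 ± 0.41 CPM with IWR-1 (SD, n = 3 each; adjusted p = 0.00346 by edgeR), and the collagen chaperone gene serpinh1b fell by 0.92 ± 0.13 (edgeR adjusted p = 0.00255). vcanb, a versican gene, fell by 0.78 ± 0.16 (edgeR adjusted p = 0.0146), a call lost on leaving out DMSO replicate 1 (0.0527) or either of IWR-1 replicates 2 (0.0856) and 3 (0.103). The others that fell, col1a1b (-0.72) and col1a2 (-0.76), were named after their values were seen, and both calls were lost on leaving out DMSO replicate 1 (edgeR adjusted p = 0.0540 and 0.0584). They were also lost without the second (0.0823 and 0.0856) and without the third (0.126 and 0.140) IWR-1 replicate, and that of col1a2 without the first (0.0586). The collagen IX genes col9a1b (-0.06 ± 0.30), col9a2 (-0.03 ± 0.23) and col9a3 (-0.09 ± 0.24), named in the same way, did not pass the edgeR test (adjusted p = 0.924, 0.959 and 0.859). col2a1a (-0.33 ± 0.25) and col5a1 (-0.43 ± 0.17) did not pass the edgeR test (adjusted p = 0.444 and 0.162). The summed level of the 42 genes fell by 36.6% with IWR-1, and that of the 3 actinodins fell by 85.7%. The matrix sum is weighted to abundant genes. Its mean was 26500 CPM with DMSO and 16810 CPM with IWR-1. Of these means col1a1a gave 7051.5 and 3658.5 CPM, col1a1b 5179.1 and 3150.4 CPM, and col1a2 4964.7 and 2926.4 CPM. A ratio to this sum leans on these abundant collagens. Per 1000 CPM of the matrix list the actinodins stood at 15.8, 14.8 and 16.2 CPM in DMSO replicates 1, 2 and 3 and at 3.36, 2.32 and 5.12 CPM in IWR-1 replicates 1, 2 and 3.

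**Figure D5:**
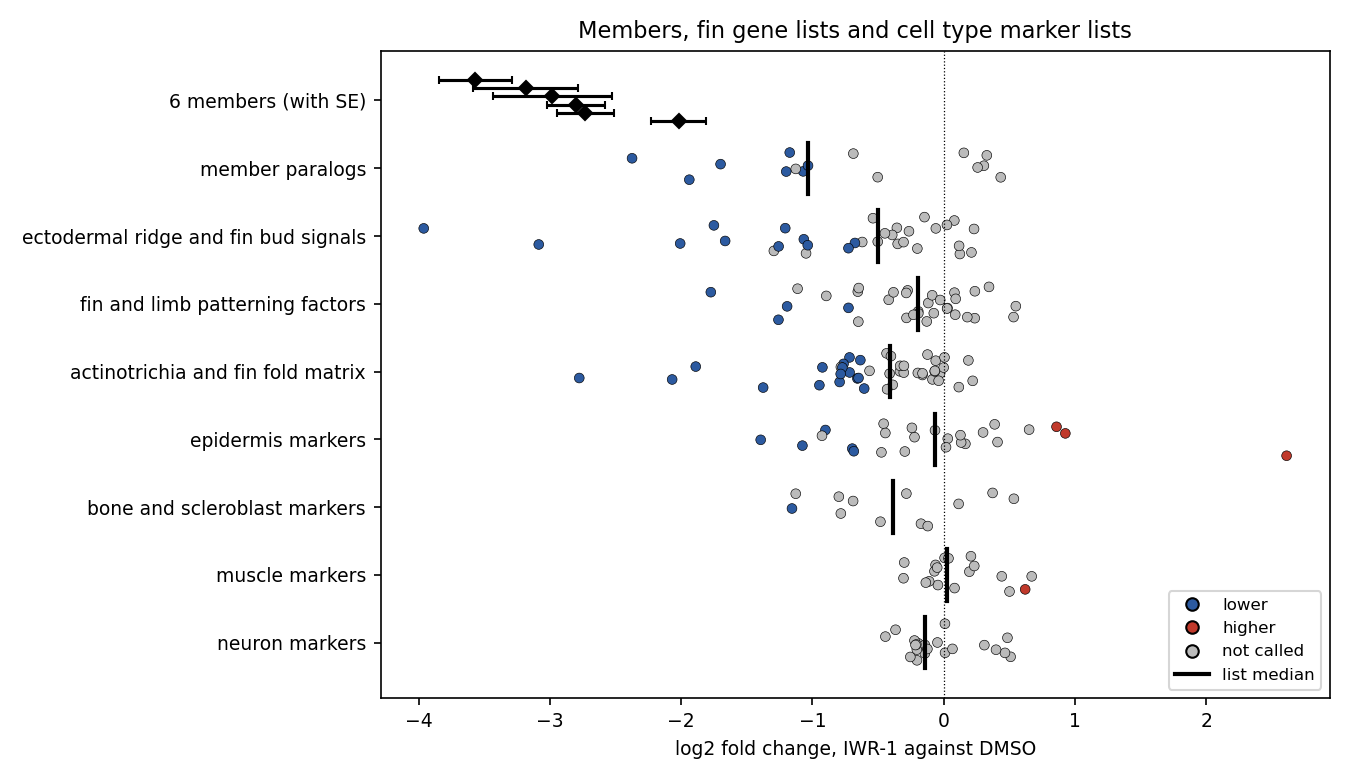
log2 fold change (IWR-1 against DMSO) of the 6 members (diamonds, whiskers 1 SE), and of every tested gene of 4 fin gene lists and 4 cell type marker lists (points, coloured by the edgeR call at an adjusted p below 0.05; bars are list medians). The paralog list has the lowest median, -1.03, and the muscle list a median of 0.02.

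Markers of the epidermis, a tissue that makes actinodins, were lower in sum with IWR-1, while single genes moved both ways. Their summed level was 7593, 7909 and 9062 CPM in DMSO replicates 1, 2 and 3 and 5187, 6401 and 7046 CPM in IWR-1 replicates 1, 2 and 3, so that every IWR-1 library was lower. The sum is weighted to abundant genes, and much of its difference lay in krt4 and krt5. Its mean was 8188 CPM with DMSO and 6211 CPM with IWR-1. Of these means krt4 gave 2230 and 1377 CPM, and krt5 gave 1534 and 955 CPM. All 25 listed markers were tested, with a median of -0.07 and 13 genes below 0. Of these 5 fell (20%) and 3 rose (12%), against 3.59% lower and 3.88% higher among all tested genes. With the replicate number as a block 9 fell and 4 rose, against 1733 and 1753 of all 19562 tested genes. The keratin genes krt4 and krt5 fell, at -0.70 ± 0.18 and -0.68 ± 0.17 (edgeR adjusted p = 0.0411 and 0.0378), while krt91 was at -0.24 ± 0.25 (edgeR adjusted p = 0.593). The call of krt4 was lost without each of the 6 libraries, at adjusted p between 0.0528 and 0.110, and that of krt5 without each but DMSO replicate 2. The others that fell were cyt1 (-1.39), krt17 (-1.08) and krtt1c19e (-0.90), and those that rose were krt92 (2.61), cldne (0.93) and agr1 (0.86), all named after their values were seen. The calls of the last 3 were lost on leaving out DMSO replicate 1 or either of IWR-1 replicates 2 and 3, and that of krtt1c19e on leaving out any library but DMSO replicate 2. In this list 1 gene reached the 0.754 CPM of the filter only with IWR-1, so it could only come out higher. krt92 was not tested under the filter of at least 1 CPM in 3 samples. cyt1, krt17, krt91, krt92 and krtt1c19e are neighbouring keratin genes on chromosome 19, and reads shared between such close relatives make their separate values uncertain. Relative to this list the actinodins stood at 50.7 ± 4.74 CPM per 1000 CPM with DMSO and 9.64 ± 3.05 with IWR-1 (SD, n = 3 each), which is 5.25-fold lower, against 6.99-fold without this reference. The ratio uses the summed level, so it leans on the same abundant keratins. The part of the epidermal markers in the differences of the actinodins, and of the Msx, Sp, Dlx and Frem genes above, was not tested.

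Markers of bone-forming cells gave 1 lower gene of 12 tested (8.33%, against 3.59% of all tested genes), spp1 (-1.16, named after its value was seen). It was not called without IWR-1 replicates 1 or 3 (edgeR adjusted p = 0.0542 and 0.0710). The bone markers summed to between 1564 and 1638 CPM with DMSO and between 1365 and 1452 CPM with IWR-1, with no overlap. Most of this sum was postnb, with means of 1278.5 CPM (DMSO) and 1175.8 CPM (IWR-1). The most abundant bone markers, postnb (-0.12 ± 0.14), mmp9 (-0.48 ± 0.26) and phex (0.11 ± 0.14), did not pass the edgeR test (adjusted p = 0.626, 0.289 and 0.659). The osteocalcin gene bglap had no row in the table. Muscle markers summed to between 72290 and 80910 CPM with DMSO and between 76290 and 81930 CPM with IWR-1, and neuron markers to between 662 and 737 and between 654 and 742 CPM. Both lists overlapped between the groups. The muscle genes actc1b, myhz2 and mylpfa were at -0.04 ± 0.15, 0.01 ± 0.19 and 0.04 ± 0.16. Of 18 muscle genes edgeR called 1 (4 with the replicate block), myhz1.2 (0.62 higher, named after its value was seen). Its call was lost on leaving out DMSO replicate 1 or any 1 IWR-1 library, at edgeR adjusted p from 0.0653 to 0.197. The muscle list thus had 5.56% called higher, against 3.88% of all tested genes. The 4 genes of the replicate block were higher too, where the block called 1753 of all 19562 tested genes higher. The neuronal genes elavl4 and elavl3 were at 0.01 ± 0.14 and 0.49 ± 0.15, and tubb5 at -0.44 ± 0.13. Of the neuron list edgeR called 0 of 21, DESeq2 1 and the replicate block 5, and 4 had an unadjusted p below 0.05. Among all tested genes these 3 fits called 1462, 1818 and 3486, so nothing is read from the neuron counts.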

How the data were processed

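RNA of 6 trunk samples was depleted of ribosomal RNA and made into directional libraries, per the labels' protocols. The authors deposited raw counts per Ensembl gene; the submitters' processing notes name cutadapt, FastQC, STAR, featureCounts and build GRCz11, without versions or strand setting. If the counting ignored strand, overlapping antisense genes cannot be told apart. Columns were assigned through the deposited sample sheet.

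The test was that of edgeR 4.0.16, run in R 4.3.3 (TMM, filterByExpr, robust quasi-likelihood fit, 2 groups of 3; 19562 of 22350 genes kept, common biological coefficient of variation 17.0%), with Benjamini-Hochberg adjustment over all tested genes. Each standard error is the absolute log2 fold change over the root of its F statistic. Alternatives were other scalings and filters, DESeq2 1.42.0, the replicate block and each library left out. Members and lists were chosen with earlier results of these data known. Genes are named by rule: each fin list's 6 called genes of smallest p and 2 most abundant uncalled ones, each marker list's 3 most abundant, and the 6 nearest profiles. For 1 gene that this rule names, the value is not reported here. List genes without a row in the table, or removed by the filter, are not counted as tested; msxa, msxb, msxd and msxe are older names of genes listed under current names.

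Libraries of the same replicate number deviated together (correlations 0.293, 0.341 and 0.159). The main fit did not pair them, and the replicate number entered as a block only among the alternatives. The labels do not say what the number marks, nor whether larvae came from separate clutches. Pairs of libraries within a group differed by more than counting noise (chi-square at least 8.18 times its degrees of freedom). In counts simulated for this comparison over 19562 genes, 67, 67 and 66 genes of at least 1 CPM were changed 1.5-, 2- and 4-fold. Of these 5.97%, 55.2% and 92.4% were recovered, and 4.67% of calls were false. The simulated libraries were drawn independently, without deviations shared by a replicate number, and far fewer genes changed than were called here. These rates therefore need not hold for the real libraries. Intervals are at 95% and cover counting error only.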

Additional observations from a re-analysis of the deposited data

How the results depend on the processing

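All 6 members stayed lower, and were called lower, under each of the 12 alternatives. The alternatives reuse the libraries whose values chose these genes, so the calls are a description and not independent support. Left-out libraries gave log2 fold changes from -3.87 to -2.85 for bhlha9 and from -3.80 to -2.65 for tspearb, from -3.05 to -2.60 for and1, from -2.88 to -2.51 for and2, from -3.88 to -3.28 for and3 and from -2.16 to -1.85 for sp9. With the replicate block 1753 genes were higher and 1733 lower, 8 patterning factors and 9 epidermis markers were called lower, and 4 muscle markers higher; the Hox and neuron counts are given above. Left-out libraries gave 258 to 1035 higher and 189 to 1082 lower genes among all tested, 4 to 19 lower matrix genes and 5 to 11 lower signalling genes. Of the 38 called genes of the 4 fin lists, 16 were called under every alternative. With upper-quartile scaling fbln1, krt4 and krtt1c19e were lost (edgeR adjusted p = 0.0526, 0.0501 and 0.0573). bhlha9 and tspearb rest on only 15 and 22 counts over the IWR-1 libraries. The cause of the changes between settings was not tested, for these 2 genes or for the others.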
